A study of Homo sapiens with 4 samples.

Results

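The PRL (phosphatase of regenerating liver) family consists of the genes PTP4A1, PTP4A2 and PTP4A3, which encode PRL1, PRL2 and PRL3. The 3 genes were taken by symbol from the deposited gene table and are 3 of 62069 genes counted in each library. All 3 passed the filter on low counts and are 3 of 17172 genes tested. The study asked how NSD2 bears on the expression of oncogenes in myeloma, and its title gives PRL3 as 1 of them.

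KMS11, the source of the RNA, is an established line derived from multiple myeloma, a plasma cell cancer, and has the t(4;14) translocation, which raises NSD2. In 2 libraries the cells carried the genotype label NSD2 knockdown and had received a lentiviral shRNA against NSD2, the gene of a histone methyltransferase. In 2 libraries they carried the label control and had received a control shRNA. All cells were infected in the presence of polybrene at 10 µg/mL and were collected at 96 h, 72 h after the medium was changed. Whether each library stands for its own culture is not stated in the labels, so the spread that the p-values measure is only that between these libraries, and it may be technical. The whole series rests on 1 cell line.

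PRL proteins are small tyrosine phosphatases of the dual-specificity class. Unlike most phosphatases they end in a prenylation signal, and the farnesyl group attached there holds them at membranes. They bind the CNNM family of magnesium transport proteins, and PRL3 was first known for its high level in metastatic colorectal cancer and has since been studied in myeloma and leukaemia.

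The coding sequences show how far the members differ there, which bears on whether a fragment of one can be counted for another. They hold 522 bases in PTP4A1, 504 in PTP4A2 and 522 in PTP4A3. The exonic lengths used for counting are 5796, 6431 and 1943 bp in the same order. The bases outside the coding sequences were not compared. Both stretches below come from the coding sequences of GENCODE 29 (GRCh38) for PTP4A1 on chromosome 6, plus strand, and PTP4A2 on chromosome 1, minus strand. Capitals mark bases that differ between both genes. The first stretch holds the codons of the phosphatase signature, from the histidine and catalytic cysteine to the arginine, with 12 bases on each side. It covers coding bases 295 to 342 of PTP4A1 and 286 to 333 of PTP4A2, and 13 of 48 bases differ.
PTP4A1 signature: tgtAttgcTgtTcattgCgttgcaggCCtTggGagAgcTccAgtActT
PTP4A2 signature: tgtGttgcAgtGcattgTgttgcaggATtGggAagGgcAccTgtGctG
The second stretch is the last 30 coding bases, which hold the prenylation signal and the stop codon (493 to 522 in PTP4A1, 475 to 504 in PTP4A2), and 16 of these differ.
PTP4A1 tail: gGtCATaGAAACAaCtgTtgCAttcaAtaA
PTP4A2 tail: gAtACCaATGGGCaTtgCtgTGttcaGtaG
Over the aligned coding bases PTP4A1 and PTP4A2 were 76.6% identical, PTP4A3 and PTP4A1 69.0%, and PTP4A3 and PTP4A2 68.3%. The longest run of bases shared without a difference was 24 between PTP4A1 and PTP4A2, 11 between PTP4A3 and PTP4A1, and 13 between PTP4A3 and PTP4A2.

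Counted fragments numbered 48334736 and 55059566 in the libraries labelled NSD2 knockdown and 50417758 and 46728940 in the control libraries. The targeted gene, NSD2, stood at 919 and 1156 CPM (fragments scaled to library size, with TMM, the trimmed mean of M values) in the libraries labelled knockdown, against 1121 and 1471 CPM in the controls. The groups overlapped, and NSD2 did not pass the test (log2 fold change -0.32, 95% interval -0.66 to 0.02, adjusted p = 0.244 by the quasi-likelihood test of edgeR), so the first group is called by its label. With control library 1 omitted NSD2 did pass (-0.50, adjusted p = 0.0196 by edgeR), as it did with knockdown library 2 omitted (-0.50, adjusted p = 0.0268). Its log2 fold change was -0.0046 in a fit with terms for the GC content and length of each gene, chosen after seeing the data. All 8 plasma cell markers were detected. Their levels summed to 3200 to 3583 CPM in the libraries labelled knockdown and 3382 to 3558 CPM in the controls. Yet 2 of the 8 (25%) fell, beside 4.19% of all tested genes called lower. SLAMF7, a surface receptor gene, fell to 119 ± 13.4 CPM in the libraries labelled knockdown, against 254 ± 25.2 CPM in the controls (log2 fold change -1.09, adjusted p = 0.000952 by edgeR). CD38, a surface enzyme gene of plasma cells, fell to 0.163 ± 0.179 CPM in the libraries labelled knockdown, against 1.12 ± 0.596 CPM in the controls (-2.82, adjusted p = 0.0284 by edgeR). The call of CD38 was lost with robust empirical Bayes (adjusted p = 0.0525), and its fold change was -4.84 with knockdown library 1 omitted. The part of these in the results on the PRL genes was not tested. The 4 myeloid markers summed to at most 0.129 CPM, the 4 fibroblast markers to at most 1.23 CPM, and the 4 T cell markers, nearly all of it CD3E, to at most 4.45 CPM.

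PTP4A3 fell, while neither PTP4A1 nor PTP4A2 passed the test. PTP4A3 (ENSG00000184489, chromosome 8, 142402093 to 142441620, plus strand, GRCh37) encodes PRL3 and is the member with the largest difference between the groups. It had 4310 and 5808 fragments, or 89.1 and 107 CPM, in the libraries labelled NSD2 knockdown, against 7491 and 8329 fragments, or 148 and 177 CPM, in the control libraries. Both libraries labelled knockdown lay below both controls, and in each group the library numbered 2 was the higher. The mean was 98.1 ± 12.6 CPM against 162 ± 20.1 CPM (SD, n = 2 each). The level was 39.6% lower, a log2 fold change of -0.73 (SE 0.12, 95% interval -1.001 to -0.45), with an adjusted p of 0.00887 in edgeR. Over all tested genes 5.93% were called in either direction, 4.19% lower and 1.74% higher in the libraries labelled NSD2 knockdown, and 1 gene of 3 is too few to set against these shares.

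Set side by side by library number, the size of that fall was nearly the same. The labels do not tie libraries of the same number together, and another pairing would give other ratios. The log2 ratio of PTP4A3, knockdown label over control, was -0.73 for number 1 and -0.72 for number 2. Number 2 exceeded number 1 by 0.26 on the log2 scale in the group labelled knockdown and by 0.25 in the control group. With 1 library left out the log2 fold change was -0.87 (knockdown library 2 omitted), -0.84 (control library 1) or -0.60 (control library 2, and likewise knockdown library 1), and the call held each time.

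PTP4A1 (ENSG00000112245, chromosome 6, 64231666 to 64293492, plus strand) encodes PRL1, known as an immediate-early gene of the regenerating liver. It had 3958 and 4525 fragments, or 81.9 and 83.4 CPM, in the libraries labelled NSD2 knockdown, against 5245 and 4343 fragments, or 103.8 and 92.1 CPM, in the controls. The groups did not overlap, which held for 53.2% of all tested genes. The means were 82.6 ± 1.08 CPM against 97.9 ± 8.24 CPM (SD, n = 2 each). The level was 15.6% lower, a log2 fold change of -0.25 (SE 0.10, 95% interval -0.46 to -0.03). Its p in edgeR was 0.0304 unadjusted and 0.174 adjusted, and so missed the threshold. The log2 ratio was -0.34 for number 1 and -0.14 for number 2. Control library 1 held the highest level of the 4, and with it omitted the log2 fold change was -0.15.

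PTP4A2 (ENSG00000184007, chromosome 1, 32372022 to 32410457, minus strand) encodes PRL2, the most widely expressed member in normal tissue. It had 11658 and 13992 fragments, or 241 and 258 CPM, in the libraries labelled NSD2 knockdown, against 11674 and 11229 fragments, or 231 and 238 CPM, in the controls. Both libraries labelled knockdown were the higher, by a small margin, and library 1 of that group lay close to control library 2. The log2 fold change was 0.09 (SE 0.09), with a 95% interval of -0.12 to 0.30 and an adjusted p of 0.625 in edgeR. It was 0.03 without knockdown library 2 and 0.14 without knockdown library 1. The interval holds no rise above 0.30 and no fall beyond 0.12 on the log2 scale, and a difference within it was not detectable with 2 libraries a group. In the fit with GC and length terms PTP4A2 stood at 0.18 (adjusted p = 0.200).

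**Figure D1:**
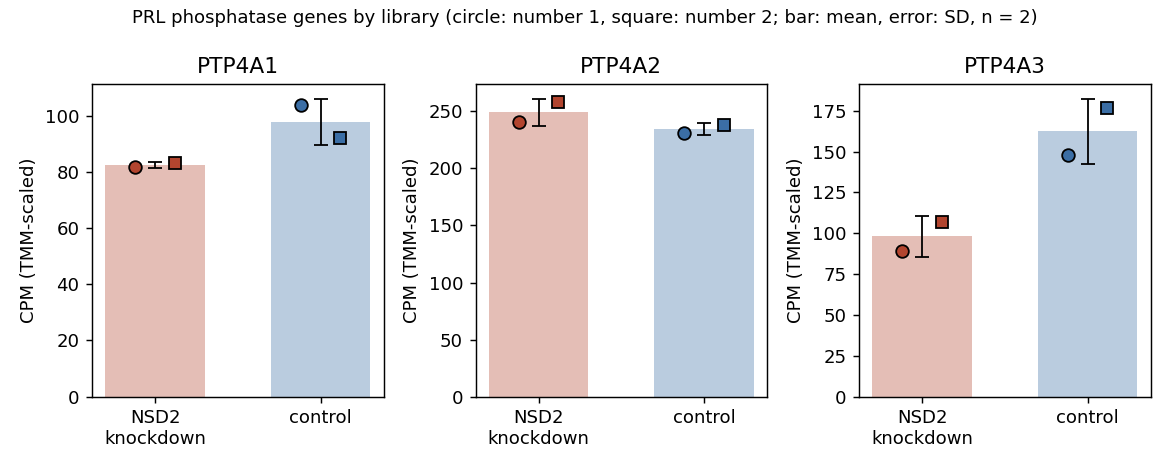
Level of each PRL gene in CPM on TMM-scaled libraries. Points are single libraries (circle for number 1, square for number 2), bars are means and error bars the SD of 2 libraries; PTP4A3 stands at 89.1 and 107 CPM in the libraries labelled NSD2 knockdown and at 148 and 177 CPM in the controls.

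The log2 fold change of PTP4A3 lay below that of most genes, with 6.64% of the tested genes lower still, while 22.8% lay below PTP4A1 and 64.0% below PTP4A2. In bulk RNA, a lower level in each cell and fewer cells that express the gene cannot be told apart.

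The members also differ in base composition, and genes of different GC content moved differently between the groups. The longest annotated transcript of PTP4A3 has a GC content of 62.6%. The 1123 tested protein-coding genes within 2 percentage points of it had a median log2 fold change of 0.07, with quartiles of -0.13 and 0.23. For PTP4A1, at 35.6% GC, the 849 matched genes had a median of -0.06. For PTP4A2, at 42.3%, the 2307 matched genes had a median of -0.0049. Of the genes matched to PTP4A3, 4.72% were called lower, beside 4.19% of all tested genes. With GC and length terms in the fit the log2 fold change of PTP4A3 was -0.77 (adjusted p = 0.0112 by edgeR). For PTP4A1 it was -0.17 with these terms (adjusted p = 0.281 by edgeR). The part of base composition in the fold changes of the members was not tested.

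**Figure D2:**
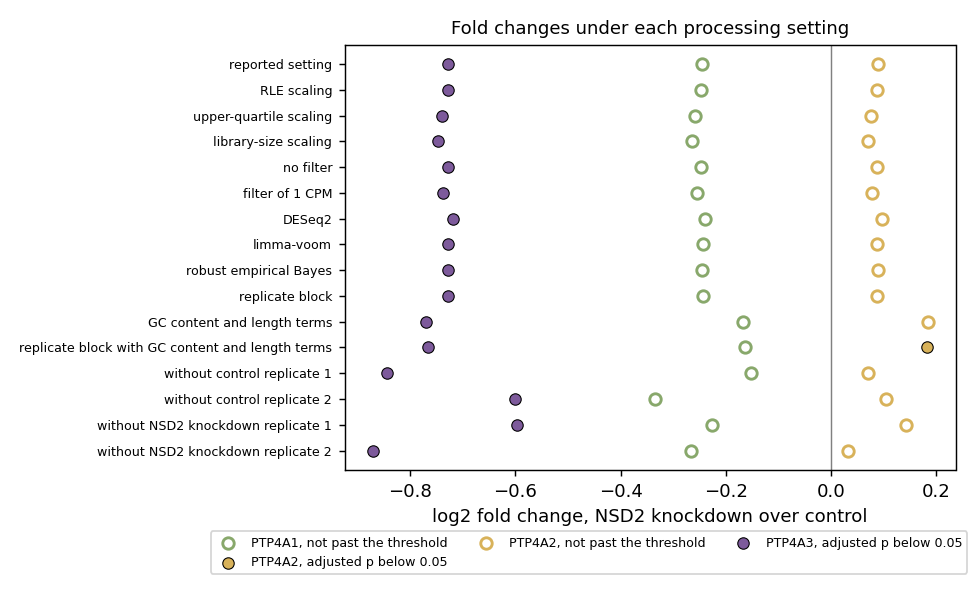
Log2 fold change of each PRL gene, NSD2 knockdown label over control, under the reported setting and each alternative (rows). Filled points have an adjusted p below 0.05 and open points do not; PTP4A3 is filled in every row, between -0.87 and -0.60, PTP4A1 is open in every row, and PTP4A2 is filled only with the replicate block and GC and length terms together.

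Per kilobase of exonic length PTP4A3 was the highest of the family, followed by PTP4A2 and then PTP4A1, and this order was the same in each of the 4 libraries. The exonic lengths in the deposited table are 1943 bp for PTP4A3, 6431 bp for PTP4A2 and 5796 bp for PTP4A1. They join the exons of all transcripts of a gene, so they exceed any single transcript of it, perhaps unequally between the genes. The order depends on these lengths. In CPM without that division PTP4A2 was the highest in each library, at 231 to 258 CPM against 89.1 to 177 CPM for PTP4A3. PTP4A3 stood at 45.9 and 55.1 CPM per kb in the libraries labelled NSD2 knockdown, against 76.3 and 90.9 CPM per kb in the controls. PTP4A2 stood at 37.5 and 40.1 CPM per kb in the libraries labelled knockdown, against 35.9 and 37.0 CPM per kb in the controls. For PTP4A1 the level was 14.1 and 14.4 CPM per kb in the libraries labelled knockdown, against 17.9 and 15.9 CPM per kb in the controls. Among 13037 tested protein-coding genes ranked by mean CPM per kb, PTP4A3 ranked 873 in the group labelled knockdown and 437 in the control group. PTP4A2 ranked 1201 in the group labelled knockdown and 1233 in the control group. PTP4A1 ranked 3344 in the group labelled knockdown and 2811 in the control group.

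PTP4A3 made up less of the family's summed level, and PTP4A2 more, with no overlap between the groups. The levels of 53.2% of all tested genes also did not overlap. Shares of a sum are tied, so a fall of PTP4A3 alone raises the share of PTP4A2. PTP4A2 itself did not pass the test (log2 fold change 0.09, adjusted p = 0.625 by edgeR). PTP4A3 gave 48.7% ± 2.28 of the summed CPM per kb of the 3 genes in the libraries labelled NSD2 knockdown, against 60.9% ± 3.23 in the controls (SD, n = 2 each). PTP4A2 gave 37.5% ± 1.32 in the libraries labelled knockdown, against 26.7% ± 1.32 in the controls. For PTP4A1 the share was 13.8% ± 0.959 in the libraries labelled knockdown and 12.4% ± 1.92 in the controls, and its groups overlapped. The sum itself was 104 ± 8.53 CPM per kb in the libraries labelled knockdown and 137 ± 9.72 CPM per kb in the controls, a difference of 24.4%.

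**Figure D3:**
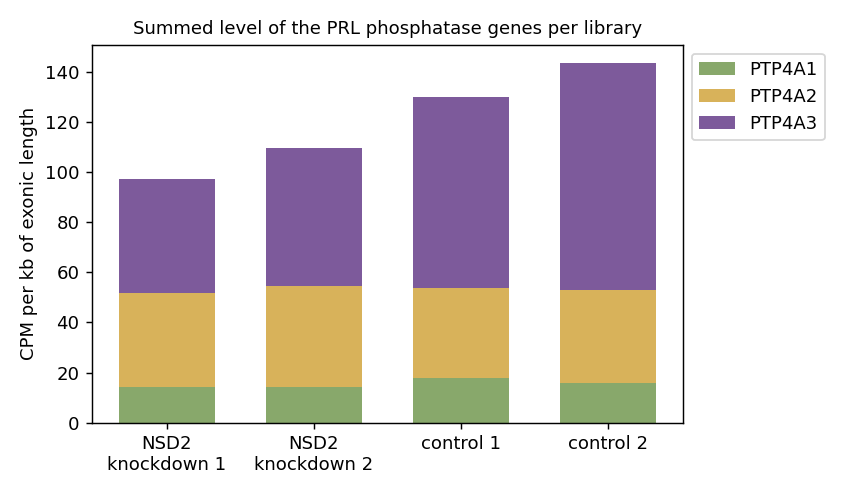
Summed level of the PRL genes per library in CPM per kb of exonic length, stacked by gene. The total lies at 97.5 and 110 in the libraries labelled NSD2 knockdown and at 130 and 144 in the controls, and the PTP4A3 segment is the part that is visibly shorter.

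Whether the members changed differently was tested on their ratios within each library, for 3 pairs. Per kb, PTP4A3 stood at 1.22 and 1.37 times PTP4A2 in the libraries labelled NSD2 knockdown, against 2.12 and 2.46 times in the controls. The difference in the mean log2 ratio was -0.82. PTP4A3 stood at 3.25 and 3.83 times PTP4A1 in the libraries labelled knockdown, against 4.26 and 5.72 times in the controls, a log2 difference of -0.49. PTP4A1 stood at 0.377 and 0.359 times PTP4A2 in the libraries labelled knockdown, against 0.499 and 0.429 times in the controls, a log2 difference of -0.33. The groups did not overlap in any of the 3 pairs, which share members with each other. The levels of 53.2% of all tested genes also did not overlap, but that share is for single genes and not for ratios. The two-sided exact permutation test gave p = 0.333 for each pair, also after adjustment over the 3 pairs. That is the smallest p that 2 libraries against 2 allow, so the test could not decide the question. The difference for PTP4A3 and PTP4A1 was -0.27 with control library 2 omitted, and that for PTP4A1 and PTP4A2 was -0.22 without control library 1.

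In the authors' deposited table, from a DESeq2 contrast headed M2 over LUC, PTP4A3 had a log2 fold change of -0.70 (SE 0.20) with an adjusted p of 0.0236. PTP4A1 had -0.23 (SE 0.17, adjusted p = 0.968) and PTP4A2 had 0.11 (SE 0.18, adjusted p = 1) in the authors' deposited table. The base mean of PTP4A3 in the authors' deposited table is 40526, above all 4 of its counts (4310 to 8329), and that of PTP4A2 is 8785, below all 4 of its counts (11229 to 13992). The same header names alignments of shScr and shM2, but which libraries entered the model is not given in the sources used here.

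Other genes with sequence of the family took almost no fragments. The annotation names 9 more genes with a PTP4A symbol, the processed pseudogenes of PTP4A1 and PTP4A2, and 6 of them had 0 fragments in all 4 libraries. PTP4A2P1 had 16 and 27 fragments in the libraries labelled NSD2 knockdown and 21 and 19 in the controls, and was the only one tested. PTP4A2P2 had 0 and 0 fragments in the libraries labelled knockdown and 1 and 4 in the controls. PTP4A1P3 had 0 and 0 in the libraries labelled knockdown and 0 and 2 in the controls.

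Counting ignored the strand of a fragment, and each member overlaps at least 1 other gene. The antisense gene ENSG00000244998 overlaps the start of PTP4A3 without sharing exonic bases, and had 10 and 8 fragments in the libraries labelled NSD2 knockdown and 9 and 22 in the controls (log2 fold change -0.85, adjusted p = 0.387 by edgeR). ENSG00000266680 shares 397 exonic bases with PTP4A1 and had 2 and 4 fragments in the libraries labelled knockdown and 8 and 7 in the controls. On the strand opposite PTP4A2, ENSG00000212673 shares 57 exonic bases with it. That gene had 7 and 2 fragments in the libraries labelled knockdown and 12 and 6 in the controls. ENSG00000228634 overlaps PTP4A2 without sharing exonic bases. Reads of a gene and its antisense partner cannot be told apart within the shared bases. Whether such reads were counted or left out was not checked here.

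The genes around PTP4A3 showed no call. Within 500 kb of it 5 genes were tested, and 0 rose and 0 fell past the threshold. Over all tested genes 5.93% were called, and 5 genes are too few to set against that share. The median log2 fold change over all tested genes was -0.0016. Among these 5 the median was -0.40, and all 5 values were below 0. That median is the value of the antisense gene ENSG00000253210, with 13 to 19 fragments a library (95% interval -1.25 to 0.44). ENSG00000244998, another of the 5, had 8 to 22 fragments a library. The value of SLC45A4 changed sign with DESeq2, with GC and length terms and with some libraries omitted. SLC45A4, a solute carrier gene and the nearest tested coding neighbour, lies 83.7 kb away and had 11.9 and 9.51 CPM in the libraries labelled NSD2 knockdown against 11.8 and 9.71 CPM in the controls. Its log2 fold change was -0.0063 (95% interval -0.36 to 0.35). Further out on the same side, and named after their values were seen, DENND3 had a log2 fold change of -0.36 (adjusted p = 0.2997) and the focal adhesion kinase gene PTK2 had -0.57 (adjusted p = 0.0808), both by edgeR. No coding gene on the other side was tested within that distance.

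The neighbourhoods of the other members differed in how many genes were expressed. Around PTP4A1 3 genes were tested and 0 were called, and 3 genes are too few to set against the 5.93% called over all tested genes. Its nearest tested coding neighbours on either side, PHF3, which binds RNA polymerase II, and FKBP1C, had log2 fold changes of -0.11 (0.06 with GC and length terms) and 0.22. The remaining tested gene, EYS, which overlaps PHF3 and is named after its value was seen, had -0.53 (adjusted p = 0.203 by edgeR). Around PTP4A2 24 genes were tested, and 1 rose and 3 fell. That is 16.7% called, beside 5.93% of all tested genes, with a median log2 fold change of 0.06 against -0.0016 over all tested genes. The collagen gene COL16A1 fell to 0.387 CPM in the libraries labelled NSD2 knockdown, against 1.34 CPM in the controls (log2 fold change -1.78, adjusted p = 0.00794 by edgeR). The adhesion receptor gene ADGRB2 and SERINC2 fell with log2 fold changes of -1.09 and -1.57. MARCKSL1, a gene of actin regulation, rose to 67.6 CPM in the libraries labelled knockdown against 46.5 CPM in the controls, a call lost with knockdown library 2 omitted (0.44 on the log2 scale, adjusted p = 0.0754 by edgeR). These 4 genes lie 142 to 464 kb from PTP4A2. The nearest tested coding neighbours on either side, SPOCD1 and KHDRBS1, an RNA-binding protein gene, had log2 fold changes of -0.16 and 0.33 and were not called.

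**Figure D4:**
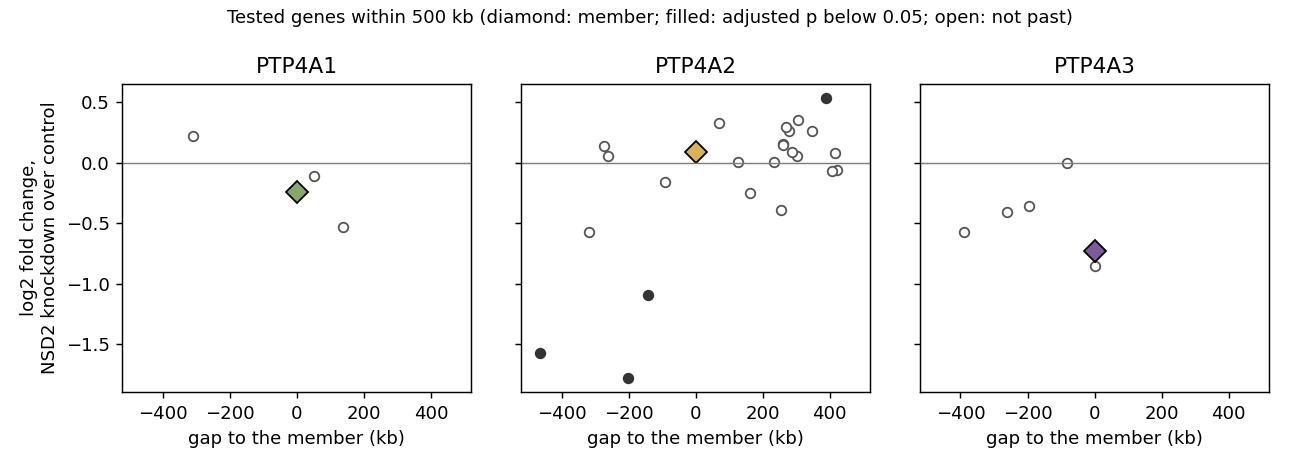
Log2 fold change of the tested genes within 500 kb of each PRL gene, plotted by the gap in kb between the spans (negative towards lower coordinates). Diamonds are the PRL genes, filled points have an adjusted p below 0.05 and open points do not; the filled neighbours are the 4 around PTP4A2, and none lies near PTP4A1 or PTP4A3.

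Among the other class I cysteine phosphatases, the superfamily that PRL proteins belong to, PTP4A3 had the highest level per kb of exonic length in the controls. Of 79 tested genes, 6 fell and 1 rose past the threshold, which is 8.86% called beside 5.93% of all tested genes, with a median log2 fold change of -0.01. In the control group 0 of the 79 exceeded PTP4A3 in mean CPM per kb. In the group labelled NSD2 knockdown 1 did, DUSP22, at 62.1 CPM per kb against 59.1 CPM per kb in the controls. It is a dual-specificity phosphatase gene named here for its rank. PTP4A2 was exceeded by 1 of the 79 in the group labelled knockdown and by 2 in the controls, and PTP4A1 by 19 in the group labelled knockdown and by 12 in the controls.

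The phosphatase genes named here as lower all had fewer CPM per kb than any PRL gene. The receptor-type phosphatase gene PTPRU fell to 0.638 ± 0.121 CPM in the libraries labelled NSD2 knockdown, against 2.02 ± 0.0741 CPM in the controls (log2 fold change -1.67, adjusted p = 0.00577 by edgeR). The focal adhesion gene TNS1 had 7 and 1 fragments in the libraries labelled knockdown against 30 and 57 in the controls. PTPRZ1, another receptor-type gene, had 4 and 6 fragments in the libraries labelled knockdown against 24 and 18 in the controls. Its call was lost with DESeq2 (adjusted p = 0.166). It was also lost in edgeR with control library 1 omitted (adjusted p = 0.0606), knockdown library 1 (0.0843) or knockdown library 2 (0.0634). MTMR10, of the myotubularin group, fell to 24.6 ± 2.28 CPM in the libraries labelled knockdown, against 39.0 ± 4.45 CPM in the controls. PTPRD, a neural receptor phosphatase gene, fell, its log2 fold change being -0.83. That call was lost with GC and length terms (-0.65, adjusted p = 0.0587) and with knockdown library 1 omitted (-0.71, adjusted p = 0.0670, both by edgeR). The single rise was that of RNGTT, the mRNA capping enzyme, to 141 ± 10.3 CPM in the libraries labelled knockdown against 93.8 ± 7.80 CPM in the controls. With a library omitted the number of rises was 2 (control library 1), 3 (control library 2), 4 (knockdown library 1) or 1 (knockdown library 2).

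**Figure D5:**
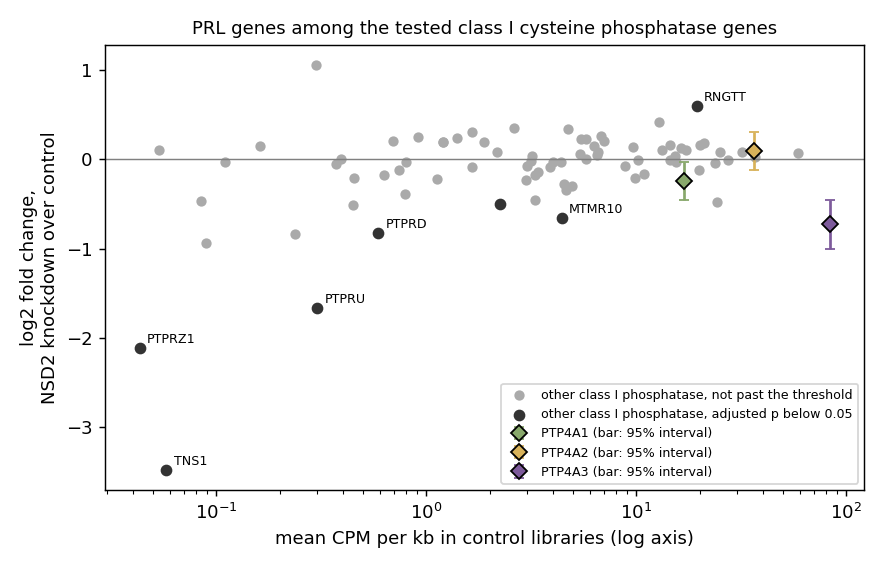
Log2 fold change of the 79 other tested class I cysteine phosphatase genes (dots) and the PRL genes (diamonds with 95% intervals) against the mean level in control libraries in CPM per kb, on a log axis. PTP4A3 lies furthest to the right, and the dots that fell past the threshold lie at lower levels than the PRL genes.

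Among 20 genes of magnesium transport, the process that the CNNM partners of PRL proteins serve, 16 were tested. Of these 1 rose and 1 fell, which is 12.5% called beside 5.93% of all tested genes, with a median log2 fold change of -0.03. CNNM2, CNNM3 and CNNM4, the PRL-binding magnesium transport proteins that were expressed, averaged 7.38, 42.1 and 33.2 CPM in the libraries labelled NSD2 knockdown and 7.48, 39.97 and 33.98 CPM in the controls. Their 95% intervals of the log2 fold change ran from -0.34 to 0.31, from -0.14 to 0.29 and from -0.28 to 0.21. CNNM1 had 1 fragment in control library 2 and 0 in each of the others. NIPAL2, a transporter gene of the NIPA group, rose to 55.6 ± 3.15 CPM in the libraries labelled knockdown against 43.0 ± 0.231 CPM in the controls (log2 fold change 0.37, adjusted p = 0.0474 by edgeR). That call was lost in 6 of 15 alternatives, among them those that omit knockdown library 1 (adjusted p = 0.0587) or knockdown library 2 (0.383), and with either omitted the list had 0 rises and 0 falls. MMGT1, which encodes a membrane magnesium transporter that is also a subunit of the ER membrane complex, fell to 76.1 ± 1.62 CPM in the libraries labelled knockdown against 102 ± 1.44 CPM in the controls (log2 fold change -0.43, adjusted p = 0.0227 by edgeR). Its adjusted p was 0.101 with knockdown library 1 omitted and 0.0697 with knockdown library 2 omitted.

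The enzymes that prenylate proteins and process the PRL tail showed 1 fall and 0 rises among 13 tested genes. That is 7.69% called beside 5.93% of all tested genes, and 1 call is too few to set against that share. The median log2 fold change was -0.04. The fall was that of CHML, an escort protein for Rab prenylation, to 57.8 ± 2.75 CPM in the libraries labelled NSD2 knockdown against 81.7 ± 5.23 CPM in the controls. The log2 fold change was -0.50 (adjusted p = 0.0158 by edgeR), and the call was lost with knockdown library 2 omitted (adjusted p = 0.0697). The subunits of farnesyltransferase, the enzyme that modifies PRL proteins, were looked up for that role after the values were seen. FNTA had 73.0 and 77.0 CPM in the libraries labelled knockdown and 67.0 and 62.4 CPM in the controls (adjusted p = 0.213 by edgeR). FNTB averaged 0.866 CPM in the libraries labelled knockdown and 0.944 CPM in the controls. Whether FNTB shares exonic bases with another gene was not checked, so its low level is uncertain.

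Of 17 genes reported as PRL partners, substrates or effectors 14 were tested, and 1 fell and 0 rose. That is 7.14% called beside 5.93% of all tested genes, with a median log2 fold change of 0.07. The fall was that of CDH1, the gene of the epithelial adhesion protein E-cadherin, to 1.72 ± 0.301 CPM in the libraries labelled NSD2 knockdown against 3.58 ± 0.639 CPM in the controls (log2 fold change -1.05, adjusted p = 0.0248 by edgeR). The list had 2 falls without control library 2 and 2 without knockdown library 1. Of 9 reported transcriptional regulators of PRL genes 7 were tested, and 1 rose and 0 fell, with a median of 0.13. That is 14.3% called beside the same 5.93%, and in each list 1 call is too few to set against that share. The rise was that of STAT5A, a cytokine-activated transcription factor, to 4.00 ± 0.335 CPM in the libraries labelled knockdown against 2.20 ± 0.413 CPM in the controls. This was a log2 fold change of 0.86 with an adjusted p of 0.0376 in edgeR, against 0.0814 with control library 2 omitted and 0.119 with knockdown library 2 omitted. The list had 0 rises with knockdown library 2 omitted, 2 with control library 2 omitted and 3 with knockdown library 1 omitted, and in both of the last cases 1 fall.

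The genes whose levels over the 4 libraries most resembled those of each member were sought among 9910 other protein-coding genes with a mean of at least 5 CPM. Likeness was the Euclidean distance between centred log2 CPM values, and with 4 libraries many genes lie close by. For PTP4A3 the nearest were ALOX5, of leukotriene synthesis, RUNX2, a transcription factor of bone formation, ITGB7, an integrin chain, STAT6, a cytokine-activated transcription factor, and CEP170B, at distances of 0.0805 to 0.108. The call of ALOX5 as lower was lost with knockdown library 1 omitted (-0.64, adjusted p = 0.0681 by edgeR). ITGB7 was the most abundant of them, at 1909 and 2492 CPM in the libraries labelled NSD2 knockdown against 3217 and 3826 CPM in the controls. For PTP4A1 the nearest were CDKN1A, the cell cycle inhibitor gene, BLOC1S4, SPATA20, TMEM107 and GOLGA5, at distances of 0.0147 to 0.0474. CDKN1A had 64.0 and 65.3 CPM in the libraries labelled knockdown against 82.1 and 72.8 CPM in the controls. For PTP4A2 the nearest were THBS3, OFD1, ALDH9A1, SPRED1 and CLPX, at distances of 0.0111 to 0.0189. Of the genes named here CNNM3, MTMR10, PHF3, EYS, THBS3 and STAT6 share exonic bases with another tested gene. Fragments within those bases may have been left out of the counts or may have an uncertain source. Some named genes, among them FNTA, FNTB, DENND3, PTK2 and DUSP22, were not checked for such overlap.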

How the data were processed

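RNA of 4 KMS11 libraries was analysed. Per the submitters' processing notes the authors used Trim Galore 0.3.7, STAR 2.5.3, Picard, featureCounts of Subread 1.4.6 and DESeq2 with GRCh37, and, per the file headers, counting of read pairs ignored strand and used alignments named as free of duplicates. The deposited values per library are raw counts per Ensembl gene. The authors also deposited a DESeq2 table that gives each gene a base mean (a scaled signal), a log2 fold change with its error, a score (the Wald statistic), p-values before and after adjustment, and the exonic length. Its 4 count columns were not used, nor was 1 blank line per count file. Symbols came from that table and gene types and coding sequences from GENCODE 29.

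Groups were compared over 17172 genes with the quasi-likelihood test in edgeR 4.0.16 (R 4.3.3), after filterByExpr and TMM scaling, with group as the only term, adjusted by Benjamini and Hochberg with a threshold of 0.05. Intervals are at 95%. The coefficient of biological variation was 9.81%. On simulated counts with 17144 genes tested, the procedure recovered 55.2% of 1.5-fold, 91.0% of 2-fold and 100% of 4-fold changes, with 2 false among 166 calls. The simulation gave all genes the same variation and changed only genes above a floor of mean count. These shares may thus not hold for genes of low count or of larger variation. Depth was 46728940 to 55059566 counted fragments a library. GC content is that of the longest GENCODE 29 transcript.

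Alternatives were scaling by RLE, by upper quartile or by library size alone, no filter, a filter of 1 CPM in 2 libraries, DESeq2 1.42.0, limma-voom (limma 3.58.1), robust empirical Bayes, a replicate block, each library left out, and, after the data were seen, GC content and length terms. GC content was known for 96.3% of tested genes.

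The members and gene lists were chosen with earlier results of these data known. Named genes were the members, NSD2, list members past the threshold (of the class I phosphatases the 5 highest and 5 lowest fold changes), CNNM1 to CNNM4, the nearest and called neighbours within 500 kb, and the 5 most similar genes per member. Others are said to be named after their values were seen. Ratios between members were tested with scipy 1.17.1, coding sequences aligned with Biopython 1.88, and figures drawn with matplotlib 3.10.9.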

Additional observations from a re-analysis of the deposited data

How the results depend on the processing

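PTP4A3 kept its call and direction under all 15 alternatives (adjusted p 1.52e-09 to 0.0158 without the replicate block), and PTP4A1 stayed below 0 and short of the threshold under all 15 (adjusted p 0.0657 to 0.519 without the block). With 1 library left out the log2 fold changes ran from -0.87 to -0.60 for PTP4A3, -0.33 to -0.15 for PTP4A1, 0.03 to 0.14 for PTP4A2 and -0.50 to -0.12 for NSD2. The lone library of a group is then assumed to vary like the others. Nothing in the labels ties libraries of the same number together, and the deviations of same-numbered libraries from their group means correlated at 0.236 over genes. With the replicate block 1327 genes were higher and 1992 lower, and NSD2 passed the threshold (-0.32, adjusted p = 0.0197). With the block and GC and length terms together, 3223 were higher and 1835 lower, and PTP4A2 passed (0.18, adjusted p = 0.0488). The cause of these changes was not tested.

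NSD2 also passed with no filter (-0.32, adjusted p = 0.0173) (658 genes higher and 1490 lower), and without control library 1 (-0.50) or knockdown library 2 (-0.50). Against 299 higher and 719 lower genes, GC and length terms gave 661 and 621, which moved the share of lower calls to 48.4% against 70.6%. Leaving out a library gave 173 (knockdown library 2) to 682 (control library 1) higher genes, with 453 without control library 2, and 649 to 1342 (control library 1) lower genes. The uncalled values near 0 changed sign in some settings. CNNM2 was 0.0556 with GC and length terms, 0.0555 with the block as well, and -0.0928 to 0.0566 without a library. CNNM4 was 0.0628 with these terms, 0.0635 with the block as well, and -0.129 to 0.0642 without a library. PHF3 was 0.0551 with these terms and 0.0548 with the block as well. SLC45A4 was 0.000601 with DESeq2, 0.14 with these terms, 0.15 with the block as well, and -0.17 to 0.14 without a library. With 2 libraries a group, 55.2% of 1.5-fold changes were recovered in simulated data, in which all genes had the same variation.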
